A study of Mus musculus with 80 samples.

Results

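Hearts of 18 male C57BL/6J mice were compared after 9 h of the light period, 9 from animals kept awake from lights-on (sleep-deprived) and 9 from animals left to sleep (sleeping). Membership came from the labels alone, by time and treatment, and the 18 arrays are part of 80 in the whole series. The other 62 came from mice sampled at lights-on (baseline, n = 10) and from sleep-deprived (n = 8, 9 and 8) and sleeping (n = 9 each) mice at 3, 6 and 12 h. All animals were about 10 weeks old, carried no transgene, lived under equal periods of light and dark and had been fed only in the dark for 14 days, so no group ate by day. Sleep was prevented by gentle handling and activity was followed by movement rather than by brain waves, so sleep cannot be told apart from physical rest, nor lost sleep from the handling. Total RNA of each heart was read on an Affymetrix Mouse Gene 1.0 ST array, and 35556 probe sets were tested. Of these, 21218 carry a single gene symbol, giving 18820 named genes. Every value below is a log2 intensity and every difference is sleep-deprived minus sleeping at 9 h unless another time is given, so that a difference of 1 is a doubling. A probe set counted as changed at a false discovery rate of 1% over all probe sets, and "rose" and "fell" stand for higher or lower in sleep-deprived than in sleeping mice, which are separate animals.

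At 9 h the nocturnal mouse is well into its main sleep period, and a mouse kept awake until then has been active through hours in which it would mostly rest. Prolonged wakefulness and handling are known to raise the adrenal hormone corticosterone, which enters cells, binds the glucocorticoid receptor and switches on genes that restrain growth, insulin action and inflammation. Wakefulness also raises body temperature, to which cold-inducible RNA-binding proteins respond, and it loads the chaperones that fold proteins in the cytosol and in the endoplasmic reticulum. The heart carries its own circadian clock and turns to fatty acids when glucose use is restrained. Neither corticosterone nor body temperature was analysed here.

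The 18 arrays were closely alike, with medians between 5.23 and 5.38 and pairwise correlations between 0.985 and 0.995. The tissue matched its label: the mean level of 11 ventricular cardiomyocyte markers ran from 12.33 to 12.48 in sleep-deprived mice and from 12.34 to 12.57 in sleeping mice, and none of them changed. Markers of other tissues and of the atria varied more, and whether their RNA came from adhering tissue or from the heart itself was not tested. The mean level of 9 lung epithelium markers ran from 4.44 to 8.63 (median 5.25) in sleep-deprived and from 4.19 to 5.56 (median 4.94) in sleeping mice, and sleep-deprived replicate 6 stood apart with the highest value. The 10 adipocyte markers ran from 7.19 to 9.46 in sleep-deprived and from 6.79 to 8.78 in sleeping mice, the 7 atrial markers from 8.50 to 10.31 and from 8.75 to 9.71, and the 12 liver markers from 5.69 to 6.84 and from 5.50 to 6.59. No member of these 4 lists changed, although every one of them had a difference above 0, with medians of 0.72 (lung), 0.51 (adipocyte), 0.32 (atrial) and 0.21 (liver). Both states occur in each of 2 runs of title numbers whose meaning the labels do not give, 5 against 5 animals in the first and 4 against 4 in the second. The surplus of lung markers lay in the second run, where the mean level was 6.77 in sleep-deprived and 4.87 in sleeping mice, against 4.91 and 5.01 in the first. Results below are therefore given, where they moved, with the mean level of a marker list as a term in the model.

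**Figure D1:**
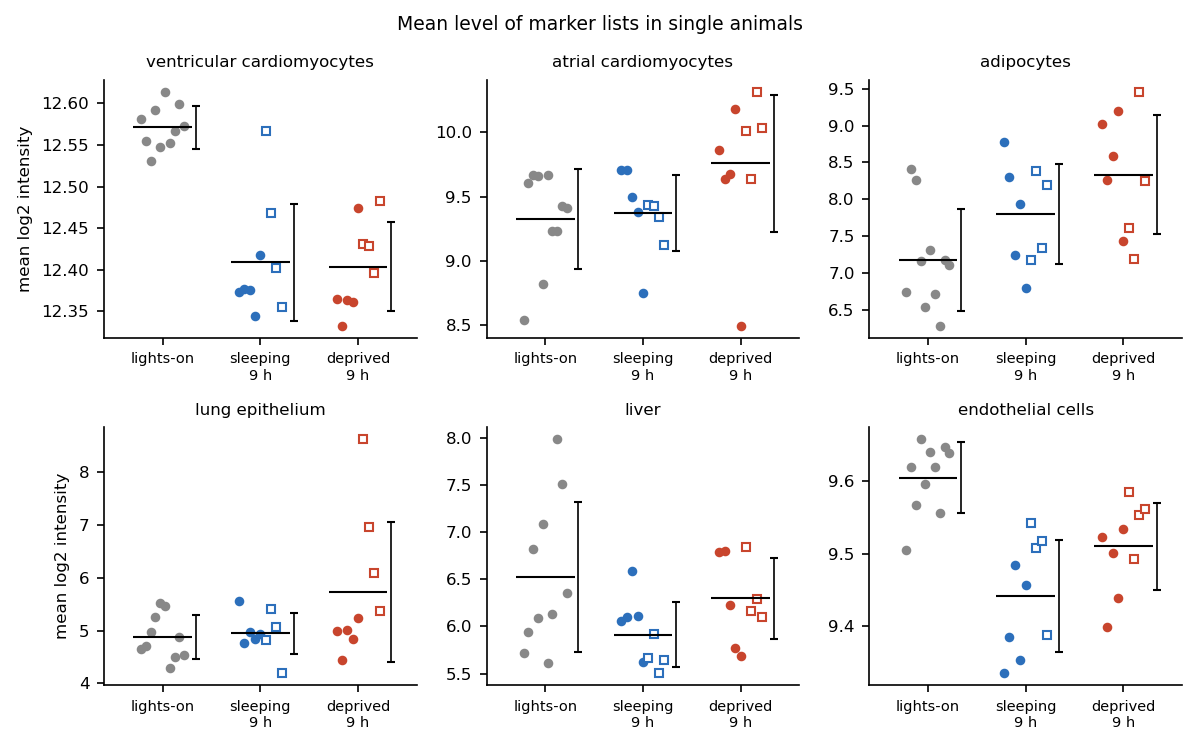
Mean log2 intensity of the measured members of 6 marker lists in each animal at lights-on (n = 10), after 9 h of sleep (n = 9) and after 9 h of deprivation (n = 9). Open squares are animals of the second run of title numbers, filled circles all others (lights-on animals lie in other runs), the horizontal line is the mean and the bar 1 SD. The sleep-deprived animal at 8.63 on the lung panel is replicate 6.

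At 9 h 568 probe sets rose (1.6% of those tested) and 608 fell (1.71%). Counted through 1 probe set per gene, 469 named genes rose (2.49%) and 403 fell (2.14%). The changes were mostly small: 48 probe sets passed 1.5-fold, 38 of them higher, and the median difference was 0.31 among those that rose and -0.27 among those that fell. For 193 of the 1176 changed probe sets the highest animal of one state lay below the lowest of the other, which held for 210 of all probe sets (0.591%). The median over all probe sets was -0.03, and when that shift was taken out by subtracting the array medians 828 probe sets rose and 386 fell. The 39 lists of genes with a shared role ranged from 3 members all lower (cold-inducible proteins) and 15 of 26 higher (glucocorticoid receptor targets) to 6 lists without any changed member. These lists were chosen with earlier results of these data known, so their counts are a description.

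**Figure D2:**
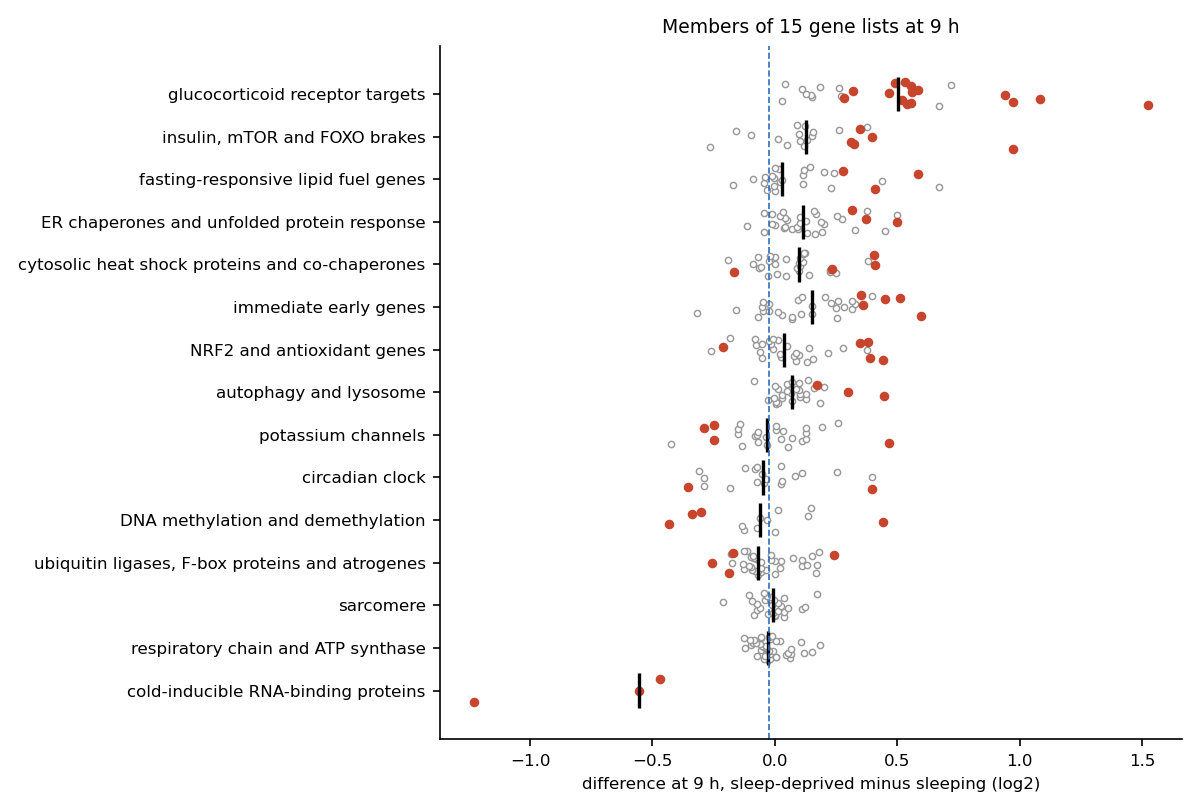
Difference at 9 h (log2, sleep-deprived minus sleeping, n = 9 each) of every measured member of 15 gene lists, 1 point per gene. Filled points passed the 1% false discovery rate, open points did not, black bars are list medians and the dashed line is the median over all named genes (-0.03). The glucocorticoid receptor targets lie wholly to the right of 0, with a median of 0.50, and the cold-inducible proteins wholly to the left.

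Glucocorticoid receptor targets formed the group with the most changed members: 15 of 26 rose and none fell, against 2.49% and 2.14% of all named genes, and the list median was 0.50. At 3, 6 and 12 h 9, 14 and 5 of the 26 were higher (medians 0.23, 0.39 and 0.14), where 1.22%, 1.55% and 2.1% of named genes were. These counts do not test the hours against each other. Averaged over the 26 genes, the sleep-deprived hearts lay between 8.58 and 8.79 and the sleeping hearts between 8.02 and 8.40, without overlap, and the list median was 0.40 within the first run and 0.55 within the second. *Cdkn1a* encodes the cell cycle inhibitor p21 and lies at chr17:29090979-29100722 (GRCm38.p6). It stood between 9.57 and 10.12 (median 9.62) in the 9 sleep-deprived mice and between 7.87 and 8.78 (median 8.10) in the 9 sleeping mice, so that every sleep-deprived heart exceeded every sleeping one. Its difference was 1.53 ± 0.14 (SE, n = 9 and 9, adjusted p = 1.28e-12), a 2.88-fold change, the smallest adjusted p among the genes that rose and are named here. *Fkbp5*, a co-chaperone that lowers the hormone affinity of the receptor (chr17:28398753-28486149), ran from 7.76 to 8.80 (median 8.36) against 6.62 to 7.85 (median 7.20). The ranges met only at their edges, with 8 of the 9 sleep-deprived mice above all sleeping mice, and the difference was 1.08 ± 0.14 (adjusted p = 1.32e-07). *Ddit4*, an inhibitor of the growth kinase mTORC1, had 8.85 to 9.42 (median 8.99) against 7.66 to 8.55 (median 8.10), a difference of 0.97 ± 0.14 without overlap.

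The remaining targets that rose did so by 0.28 to 0.94. *Lcn2*, an iron-binding acute-phase protein, was 0.94 higher, *Sult1a1*, a sulfotransferase, 0.56, and *Errfi1*, an inhibitor of the epidermal growth factor receptor, 0.52. The transcription factors *Cebpb* and *Cebpd* differed by 0.54 and 0.56, and *Zbtb16*, among the genes most responsive to the hormone in many tissues, by 0.53. *Tsc22d3*, which encodes the anti-inflammatory protein GILZ, had 9.19 to 9.47 against 8.72 to 9.02, a narrow spread in both states with a difference of 0.49 ± 0.084. The metallothioneins *Mt1* and *Mt2*, which bind zinc and copper, rose by 0.47 and 0.56 without overlap. *Nfkbia* and *Glul* had the smallest differences of the group that passed, 0.32 and 0.28. The other 11 members did not pass although all were above 0, among them the clock gene *Per1* (0.11, adjusted p = 0.725), *Klf9* (0.15, adjusted p = 0.1), *Sgk1* (0.18, adjusted p = 0.11), *Dusp1* (0.03, adjusted p = 0.877) and *Angptl4* (0.67, adjusted p = 0.0156). The receptor gene itself, *Nr3c1*, fell by 0.20 ± 0.044, from 8.87 to 9.13 in sleeping to 8.60 to 8.90 in sleep-deprived mice. The list was assembled from general knowledge with earlier results of these arrays known, so its count is a description. With the lung marker level as a term 13 of the 26 rose, *Pdk4* (0.30 and 0.94 within the runs) and *Nfkbia* no longer among them, and *Zbtb16*, *Pdk4*, *Nfkbia* and *Nr3c1* did not pass when the spread was estimated from the 18 arrays of 9 h alone.

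Of the receptor targets with a promoter in the RefSeq table (GRCm38.p6, 250 bases before to 50 after the start), 22 of the 26 list members and 13 of the 15 that rose could be searched on both strands for the half-site AGAACA. It was found in 2 of the 22 and in 1 of the 13 (7.69%), against 19.0% of all 27025 promoters, which says only how often these letters occur in this window. The promoter that holds it is shown because it is the only one among the risen targets. In *Sult1a1* (chr7:126676369-126676668, minus strand) the capitals mark the half-site, once in each orientation.
Sult1a1: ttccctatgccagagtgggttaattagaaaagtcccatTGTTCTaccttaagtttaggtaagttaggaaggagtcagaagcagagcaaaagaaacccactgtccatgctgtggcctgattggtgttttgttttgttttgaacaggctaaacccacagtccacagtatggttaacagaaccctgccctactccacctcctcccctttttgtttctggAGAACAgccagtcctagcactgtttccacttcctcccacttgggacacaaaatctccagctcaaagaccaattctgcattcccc

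**Figure D3:**
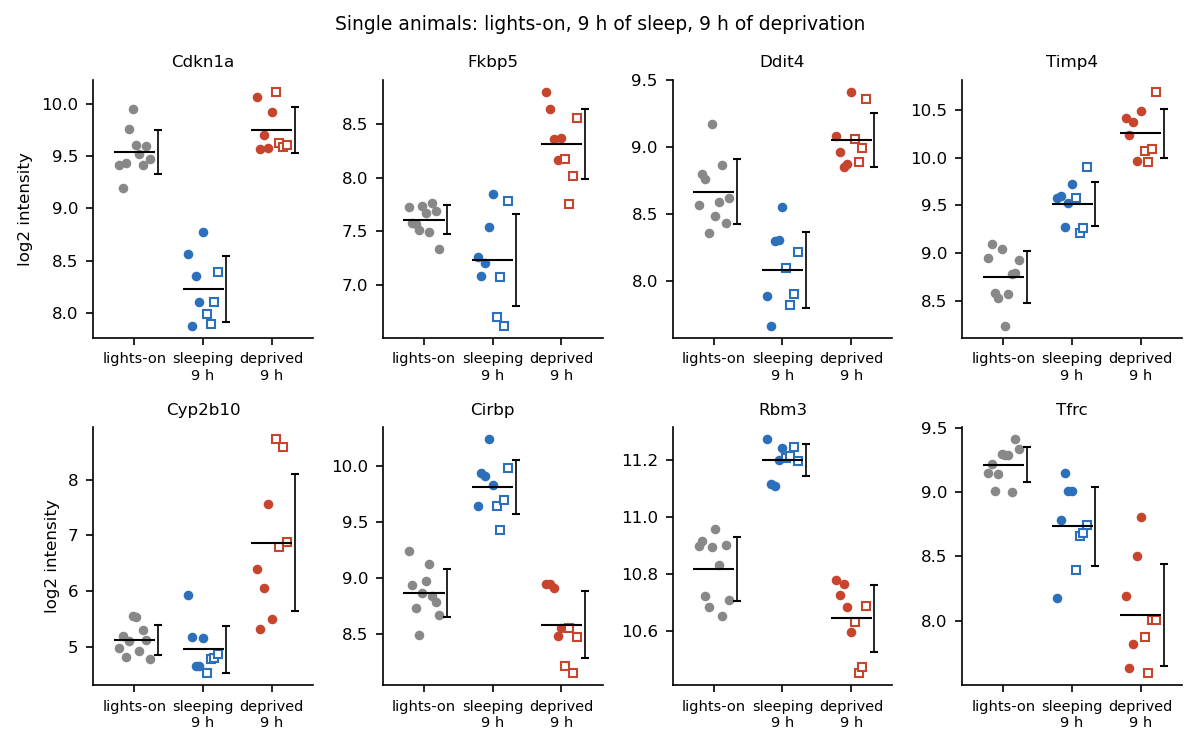
Log2 intensity of 8 genes in each animal at lights-on (n = 10), after 9 h of sleep (n = 9) and after 9 h of deprivation (n = 9). Open squares are animals of the second run of title numbers, filled circles all others, lines are means and bars 1 SD. *Cdkn1a*, *Ddit4*, *Timp4*, *Cirbp* and *Rbm3* show no overlap between the states at 9 h, whereas *Tfrc* does.

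In a list of 20 genes of insulin, mTOR and FOXO signalling 5 rose (25%, against 2.49% of named genes), none fell and 15 did not pass, 3 of these with differences below 0 (list median 0.13). Besides *Ddit4*, the transcription factors *Foxo1* and *Foxo3*, which insulin keeps out of the nucleus, rose by 0.32 and 0.31. *Irs1*, the adaptor that carries the signal of the insulin receptor and is not an inhibitor, rose by 0.40 (8.32 to 8.80 against 7.92 to 8.33) and the pseudokinase gene *Trib1* by 0.35. The receptor gene *Insr* (0.01, adjusted p = 0.889) and *Irs2* (0.15, adjusted p = 0.267) did not pass. *Depp1*, a FOXO-responsive gene outside the list, ran from 8.72 to 9.45 against 8.04 to 8.70, without overlap, and was 0.78 ± 0.13 higher. *Foxo3* and *Trib1* lost their calls in the fit of the 9 h arrays alone.

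Of 25 fasting-responsive lipid genes 3 rose (12.0%, against 2.49% of named genes), none fell and the list median was 0.03. *Pdk4*, the kinase that shuts glucose carbon out of the mitochondrial oxidation, ran from 11.89 to 12.53 (median 12.21) against 11.33 to 12.39 (median 11.53), with 3 of 9 sleep-deprived mice above every sleeping mouse, and its difference was 0.58 ± 0.13 (adjusted p = 0.00127). *Pnpla2*, which encodes the lipase that opens the stored triglyceride, rose by 0.28 ± 0.049 without overlap (11.42 to 11.69 against 10.98 to 11.37). *Acot1*, a thioesterase of long-chain acyl-CoA whose copies are nearly identical in sequence, rose by 0.41 (adjusted p = 0.00894), a call kept in only 4 of 18 fits that left out a single animal. The fatty acid importer *Cd36* (9 h adjusted p = 0.983), *Cpt1a* (-0.17, adjusted p = 0.0526) and *Ppargc1a* (0.02, adjusted p = 0.889) did not pass. Glucose transport and glycolysis gave 2 of 24 higher (8.33%), *Pfkp* (0.30) and *Pgam1* (0.39), and the respiratory chain and ATP synthase 0 of 40. *Pdk4*, *Acot1*, *Pfkp* and *Pgam1* did not pass in the 9 h arrays alone.

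The largest difference among all probe sets belonged to *Cyp2b10*, a cytochrome P450 induced through the receptor CAR in liver (chr7:25897658-25926624). Its 9 sleep-deprived values spread from 5.32 to 8.73 (median 6.79) and its sleeping values from 4.54 to 5.93 (median 4.81). In all, 7 of the 9 sleep-deprived mice were above every sleeping mouse, while the other two lay within the sleeping range. The difference was 1.91 ± 0.31 (adjusted p = 1.15e-05), 3.76-fold, and it was 1.05 within the first run and 2.99 within the second. This SE pools the spread of all 9 groups, whereas the sleep-deprived values of this gene were more widely spread than the sleeping ones. The gene is also made in lung, and the animal with the highest lung marker level (8.63) was the one with the highest *Cyp2b10*. That animal, replicate 6, had atrial and adipocyte levels of 10.01 and 7.60. Sleep-deprived replicate 8, next in *Cyp2b10* (8.58), had a lung level of 6.10 and the highest atrial (10.31) and adipocyte (9.46) levels. Replicate 4, the highest sleep-deprived animal of the first run (7.56), had a lung level of 4.84, an atrial level of 10.18 and an adipocyte level of 9.20. Which of these marker lists the gene goes with was not tested. Without replicate 6, the animal with the highest lung level, the difference was 1.68, and with the lung marker level as a term it was 1.55 ± 0.29 (adjusted p = 0.000175). With the liver marker level as a term it was 1.84. In the first run, where the difference was 1.05, the lung markers stood at 4.91 in sleep-deprived and 5.01 in sleeping mice. The adipocyte markers stood there at 8.50 and 7.81 and the atrial markers at 9.57 and 9.41. Whether RNA of any of these tissues carried the difference was not tested. The first run alone gave no call for any probe set, so no test of this gene within it is given. *Mfsd2a*, a transporter of lysophospholipids carrying omega-3 fatty acids, rose by 1.13 ± 0.26 (4.23 to 6.39 against 3.56 to 5.09), with 4 of 9 animals beyond the sleeping range and a call in 15 of 18 fits without a single animal, but none in the 9 h arrays alone or in those of 9 and 12 h. *Lcn2*, also an airway gene, was 0.84 higher with the lung term (adjusted p = 0.00401).

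Other genes with large differences had varied roles. *Fam107a*, an actin-associated stress-responsive gene, ran from 6.88 to 8.00 against 5.93 to 7.05 (difference 1.07 ± 0.15). *Slc10a6*, a transporter of sulfated steroids, and *Map3k6*, a stress-activated kinase, rose by 0.87 and 0.85, both without overlap. *Arrdc2*, an arrestin-domain gene, was 0.82 higher and *Rbp7*, a retinol-binding protein of heart and adipose endothelium, 0.78 (7.21 to 7.94 against 6.40 to 7.09). *Serpina3n*, an acute-phase protease inhibitor, was 0.77 higher, with 8.38 to 9.08 against 7.63 to 8.37. Among these the differences with the lung term were 1.10 for *Fam107a* and 0.72 for *Rbp7*.

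The cold-inducible group held the gene with the smallest adjusted p of all those named here. *Cirbp* (chr10:80165990-80172786) and *Rbm3* encode small RNA-binding proteins whose transcripts accumulate as temperature drops, and *Srsf5* is a splicing factor regulated with them. All 3 members of the list fell, against 2.14% of named genes. This short list was chosen with earlier results of these data known, so its count is a description. *Cirbp* stood between 8.15 and 8.95 (median 8.55) in sleep-deprived and between 9.43 and 10.24 (median 9.83) in sleeping mice, without overlap, a difference of -1.23 ± 0.11 (adjusted p = 9.78e-14). *Rbm3* was read by 2 probe sets with differences of -0.55 ± 0.061 and -0.58 ± 0.069, the brighter at 10.45 to 10.78 against 11.11 to 11.27. For this probe set the sleeping animals spanned a range narrower than the gap between the states. *Srsf5* fell by 0.47 ± 0.096, with 8 of 9 sleep-deprived mice below all sleeping mice. Of 49 spliceosome and splicing genes, *Acin1* rose by 0.19 and *Srsf3* and *Ddx46* fell by 0.32 and 0.22. These shares of 2.04% and 4.08% stand against 2.49% and 2.14% of named genes. *Srsf3* had a call in 9 of 18 fits without a single animal, and none of these 3 had one in the 9 h arrays alone.

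In the endoplasmic reticulum chaperone list 3 of 34 members rose (8.82%, against 2.49% of named genes) and none fell (median 0.11). At 3, 6 and 12 h 14, 10 and 4 of them were higher (medians 0.25, 0.20 and 0.03), where 1.22%, 1.55% and 2.1% of named genes were. *Herpud1*, which takes misfolded proteins to degradation, ran from 11.50 to 11.72 (median 11.60) against 10.999 to 11.32 (median 11.10), without overlap, and rose by 0.50 ± 0.063 (adjusted p = 4.39e-08). *Xbp1*, the transcription factor spliced by the stress sensor IRE1, rose by 0.32 ± 0.063, and the chaperone *Hyou1* by 0.37 ± 0.09 with a call in 15 of 18 fits. The central chaperone *Hspa5*, known as BiP, had 11.24 to 11.92 against 11.39 to 11.74, fully overlapping, and a difference of 0.05 (adjusted p = 0.776). In the cytosol 3 of 31 heat shock genes rose (9.68%) and 1 fell (median 0.10), with 10, 8 and 1 higher at 3, 6 and 12 h. *Hsph1*, a large chaperone of the HSP110 class, had 8.47 to 8.70 against 7.96 to 8.36 (0.40 ± 0.089), and *Hsp90aa1*, the inducible HSP90, rose by 0.41 and the co-chaperone *Dnajb2* by 0.23. *Dnaja2* fell by 0.17, a call kept in 8 of 18 fits and lost, like that of *Hyou1*, in the 9 h arrays alone, and *Hspa4*, with medians of 10.49 and 10.50, did not pass (adjusted p = 0.989). Tested directly, the difference at 9 h departed from that at 3, 6 or 12 h in 0 members of either list at the 1% rate in limma. The counts of calls therefore do not show that the hours differ. At an unadjusted p under 0.05 in limma the 9 h difference was lower than at 3 h in 8 of 34 and 10 of 31 members. It was lower than at 6 h in 3 and 6 and higher than at 12 h in 6 and 1. Over all 35556 probe sets 5489, 3449 and 3412 lay under that p against 3, 6 and 12 h, in either direction.

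The letters CCACG, part of the ER stress response element, stood in 23 of 30 endoplasmic reticulum list promoters, against 32.7% of all promoters. They also stood in 45.7% and 46.8% of the promoters of named genes that rose and fell, and in 59.1% of those of the receptor targets. The heat shock core GAANNTTC stood in 9 of 27 heat shock list promoters, against 7.95% of all and 3.53% and 3.17% of those of named genes that rose and fell. Both list counts are of the whole lists, whose members were chosen for their known function. From each list 1 risen gene is shown with its motif in capitals, *Herpud1* (chr8:94386179-94386478, plus strand, 2 matches) and *Hsph1* (chr5:149636287-149636586, minus strand, 1 match).
Herpud1: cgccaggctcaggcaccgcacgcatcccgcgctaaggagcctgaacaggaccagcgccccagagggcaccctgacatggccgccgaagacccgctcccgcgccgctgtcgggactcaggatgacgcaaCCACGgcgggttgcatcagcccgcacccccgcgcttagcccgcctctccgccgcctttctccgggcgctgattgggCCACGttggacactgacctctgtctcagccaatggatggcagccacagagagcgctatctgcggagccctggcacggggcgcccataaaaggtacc
Hsph1: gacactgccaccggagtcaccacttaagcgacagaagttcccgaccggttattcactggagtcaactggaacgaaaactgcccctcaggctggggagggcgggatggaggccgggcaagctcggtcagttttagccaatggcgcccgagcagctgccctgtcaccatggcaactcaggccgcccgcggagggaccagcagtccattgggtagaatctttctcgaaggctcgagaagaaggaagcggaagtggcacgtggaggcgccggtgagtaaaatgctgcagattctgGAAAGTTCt

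Of 20 genes of the circadian clock 1 rose and 1 fell (5% each, against 2.49% and 2.14% of named genes), and the median was -0.05. *Bhlhe41*, a repressor of the clock activators, ran from 8.34 to 8.85 (median 8.46) against 8.24 to 9.26 (median 8.87), a difference of -0.36 ± 0.078 (adjusted p = 0.0013). The sleep-deprived values lay wholly within the sleeping range. *Arntl*, the activator BMAL1, was 0.40 ± 0.10 higher (5.11 to 5.95 against 4.71 to 5.43, adjusted p = 0.00865), and this call was kept in 5 of 18 fits without a single animal. From lights-on to 9 h the same gene changed by -3.21 in sleeping and -2.81 in sleep-deprived mice, so the state difference was small beside the change over the day. *Clock* (0.03, adjusted p = 0.817), *Per2* (0.25, adjusted p = 0.133), *Per3* (-0.31, adjusted p = 0.0667), *Nfil3* (0.40, adjusted p = 0.0297), *Ciart* (-0.29, adjusted p = 0.298) and *Hlf* (-0.29, adjusted p = 0.0152) did not pass. In simulated data 65.7% of differences of 0.4 were recovered, so a difference of that size can be missed. *Bhlhe41* and *Arntl* lost their calls in the fit of the 9 h arrays alone and in that of the 9 and 12 h arrays, and *Arntl* also with the lung or the atrial term. The E-box CACGTG, the element bound by the clock activators, stood in 7.24% of all promoters and in 5 of 18 clock list promoters. It stood in 11.7% and 12.7% of the promoters of named genes that rose and fell. The promoter of *Arntl* had none. That of *Bhlhe41* (chr6:145865371-145865670, minus strand) had 1 and is shown with the motif in capitals.
Bhlhe41: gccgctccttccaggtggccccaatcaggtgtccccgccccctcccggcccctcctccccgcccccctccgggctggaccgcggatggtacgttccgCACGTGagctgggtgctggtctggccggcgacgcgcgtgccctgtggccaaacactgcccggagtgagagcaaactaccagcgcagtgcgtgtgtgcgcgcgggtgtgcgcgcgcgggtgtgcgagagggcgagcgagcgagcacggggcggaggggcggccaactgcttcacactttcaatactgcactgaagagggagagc

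Receptors of circulating signals were among the genes that fell. *Agtr1a*, the main angiotensin II receptor, ran from 9.11 to 9.54 (median 9.41) against 9.32 to 9.996 (median 9.93), a difference of -0.47 ± 0.061 (adjusted p = 6.27e-08). A single sleeping animal made the overlap, since 9.32 lay well below the sleeping median. *Aplnr*, the apelin receptor of vessels and cardiomyocytes, had 7.95 to 8.49 against 8.48 to 9.46 and fell by 0.70 ± 0.14 (adjusted p = 0.000403). *Tfrc*, the transferrin receptor that brings iron into cells, ran from 7.59 to 8.80 (median 8.00) against 8.18 to 9.15 (median 8.74), with overlap in 3 of 9 sleep-deprived mice, a difference of -0.69 ± 0.17. It kept its call in 12 of 18 fits without a single animal, lost it in the 9 h arrays alone and with the atrial term, and was the only one of 17 iron genes to change. *Hif1a*, the oxygen-regulated transcription factor, was 0.35 lower without overlap (9.50 to 9.80 against 9.87 to 10.17), while the vascular growth factor gene *Pgf* and its receptor *Flt1* rose by 0.35 and 0.18 (*Pgf* in 6 of 18 fits without a single animal). The 15 measured hormone and adrenergic receptors gave 2 lower (*Agtr1a* and *Nr3c1*, 13.3%, against 2.14% of named genes) and none higher. In whole heart RNA, fewer cells of a type and less RNA per cell cannot be told apart. Of 12 endothelial markers *Pecam1* and *Eng* rose, by 0.17 and 0.19 (16.7% of the list, against 2.49% of named genes). The mean level of the list ran from 9.40 to 9.59 in sleep-deprived and 9.34 to 9.54 in sleeping mice, and its part in the results on vascular genes was not tested.

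*Kcna5*, the ultrarapid delayed rectifier channel, rose by 0.47 ± 0.079 (6.62 to 7.16 against 6.07 to 6.90), and *Kcnd2*, a transient outward channel, fell by 0.25, as did *Kcnn2* (0.25) and *Kcnk2* (0.29). Those were the 4 changed genes of 27 potassium channel genes (3.7% higher and 11.1% lower, against 2.49% and 2.14% of named genes). After subtraction of the array medians none of the 27 fell and 2 rose. Among 22 sodium and calcium handling genes 2 fell (9.09%) and 1 rose (4.55%). *Scn4b*, a sodium channel subunit, and *Camk2d*, the main calmodulin kinase of the heart, fell by 0.45 and 0.16. *Stim1*, a sensor of stored calcium, rose by 0.28 (7.31 to 7.73 against 7.08 to 7.28, without overlap). *Kcnk2*, *Kcnn2* and *Scn4b* kept their calls in 8, 4 and 11 of 18 fits without a single animal, and none of the genes in this paragraph but *Kcna5* passed in the 9 h arrays alone. Sarcomere genes gave 0 of 28, with differences around a median of -0.01.

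Of 21 metalloproteinase and inhibitor genes 3 rose (14.3%, against 2.49% of named genes), all tissue inhibitors. *Timp4*, abundant in heart, stood between 9.96 and 10.69 (median 10.24) against 9.21 to 9.91 (median 9.57), without overlap (0.74 ± 0.14, adjusted p = 0.000122). *Timp1* was 0.56 higher and *Timp3* 0.33. Of 31 collagen and collagen-processing genes 3 rose (9.68%) and none of them was a collagen: *Lox*, which cross-links collagen (5.81 to 6.42 against 5.10 to 5.72, 0.73 ± 0.10), *P4ha1* (0.40) and *Plod3* (0.32), which hydroxylate it. *Ccn2*, a matrix-associated growth factor, rose by 0.60 ± 0.092 and the fibroblast proteoglycan gene *Lum* fell by 0.31. Of 10 fibroblast markers 2 rose (20%) and 1 fell (10%), against 2.49% and 2.14% of named genes. Their mean level ran from 8.90 to 9.11 in sleep-deprived and from 8.77 to 9.01 in sleeping mice. The chemokines *Ccl6* and *Ccl9*, neighbours on chromosome 11 and similar in sequence, rose by 0.81 and 0.67, *Ccl6* without overlap (7.98 to 8.60 against 7.21 to 7.93). *Il6ra*, the interleukin-6 receptor, rose by 0.37 and *Cxcl12*, which holds progenitors in place, fell by 0.38. With *Ccl6* and *Ccl9* these made 4 changes among 39 genes of that list (7.69% higher and 2.56% lower, against 2.49% and 2.14% of named genes). None of 12 macrophage or 9 neutrophil markers changed (medians 0.06 and 0.14). *Ifi205*, of an interferon-inducible family of close copies, was 0.83 higher (9.26 to 9.81 against 8.02 to 9.08), while of the other interferon-stimulated genes only *Oas2*, a sensor of viral RNA, rose (0.38) and 25 of 27 did not pass. *Timp1* did not pass in the 9 h arrays alone, and *Oas2* did not in those of 9 and 12 h or with the lung term.

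Of 32 immediate early genes, which answer a stimulus first, 5 rose (15.6%, against 2.49% of named genes) and none fell (list median 0.15). The 5 were *Ccn2*, *Myc* (0.51), *Maff* (0.45), *Ier5* (0.36) and *Zfp36* (0.35). Antioxidant genes gave 4 higher (13.3%) and 1 lower (3.33%) of 30, against 2.49% and 2.14% of named genes. *Gclm*, a subunit of the enzyme that starts glutathione synthesis, ran from 9.09 to 9.62 against 8.69 to 9.01 (0.44 ± 0.085). The plasma peroxidase *Gpx3* rose by 0.39, *Srxn1* by 0.38 and the extracellular dismutase *Sod3* by 0.35, whereas the quinone reductase *Nqo1* fell by 0.21. *Gclm* and *Nqo1* are both known targets of the factor NRF2 and moved in opposite directions. In the autophagy list 3 of 30 rose (10%, against 2.49% of named genes), *Bnip3* (0.45), *Gabarapl1* (0.30) and *Sqstm1* (0.17). Of 13 DNA methylation and demethylation genes 3 fell (23.1%) and 1 rose (7.69%), against 2.14% and 2.49% of named genes, and 9 did not pass. *Tet1* and *Tet2*, which oxidise methylated cytosine, were lower by 0.34 and 0.30 and the adaptor *Gadd45a* by 0.43, while *Mbd1*, a reader of methylated DNA, rose by 0.44. Ubiquitin ligases gave 1 higher (*Smurf2*, 0.24) and 3 lower of 39 (*Fbxw7*, 0.26, *Btrc*, 0.19, and *Ubr1*, 0.17). Their shares were 2.56% and 7.69%, against 2.49% and 2.14% of named genes. *Ppat*, the first enzyme of purine synthesis, fell by 0.44 and *Ampd3*, which deaminates AMP, rose by 0.17. *Myc*, *Maff*, *Gpx3*, *Srxn1*, *Nqo1*, *Gabarapl1*, *Sqstm1*, *Tet1*, *Gadd45a*, *Btrc*, *Ubr1* and *Ampd3* did not pass in the 9 h arrays alone.

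No member changed in 6 lists: sarcomere (28 genes), respiratory chain (40), cytosolic ribosomal proteins (35), cholesterol synthesis (25), antigen presentation (25) and the ATF4 amino acid response (23). Others had 1, such as proliferation genes with *Cenpf*, a kinetochore protein lower by 0.49, of 28, proteasome subunits with *Psmd14* (lower by 0.20) of 32 and DNA repair with *Parp2* (lower by 0.22) of 42. Such a single member is 3.57%, 3.125% and 2.38% of these lists, and 2.14% of named genes fell. Arrays of independent normal noise were simulated with the mean and SD of each probe set. Differences of 0.2, 0.4 and 0.8 were placed in 67, 67 and 66 probe sets, and the 9 h comparison recovered 17.9%, 65.7% and 83.3% of them. Differences near 0.2 were thus mostly missed in such data. Noise shared between probe sets was not simulated, and fewer probe sets were changed than were called at 9 h, so recovery in the real arrays can differ. The medians of the 6 lists lay between -0.03 and 0.10.

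The named genes that fell most besides those above have varied roles. *Lgi1*, a secreted synaptic ligand, fell by 0.67 (0.36 within the first run and 1.05 within the second), *Cstad* by 0.66 and *Nrep*, expressed in regenerating tissue, by 0.65 (8.23 to 8.58 against 8.73 to 9.55, without overlap). *Scin*, an actin-severing protein, *Akap5*, an anchor of protein kinase A, and *Carns1*, which makes carnosine, fell by 0.60, 0.59 and 0.54. *Akap5* had 1 sleep-deprived animal at 6.86, above all sleeping animals. *Hmcn1*, an extracellular matrix protein, fell by 0.51 without overlap.

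**Figure D4:**
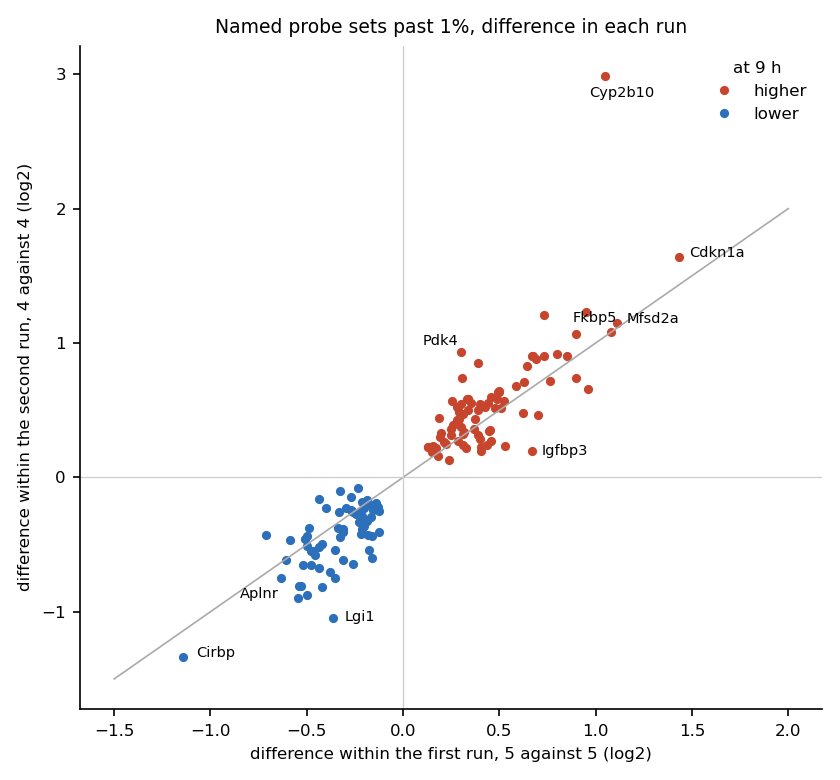
Difference of each named changed probe set within the first run (x axis, 5 sleep-deprived against 5 sleeping mice, log2) and within the second run (y axis, 4 against 4), with the line of equality. All points lie in the quadrants of their pooled direction, and *Cyp2b10* lies farthest from the line, at 1.05 and 2.99.

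MicroRNA genes stood mostly on the lower side. They were examined after their values were seen, as small RNA genes are counted but not named by the rule that chose the other genes. Mature microRNAs pair with messenger RNAs through their seed, bases 2 to 8, and repress them. The array reads the gene, that is precursor or host RNA, so levels of the mature forms were not analysed here. Of 310 probe sets for 306 microRNA genes 11 fell (3.55%) and 0 rose, against 1.71% and 1.6% of all probe sets. In all, 262 of the 310 (84.5%) were below 0, as were 60.8% of all probe sets, and their median was -0.09 against -0.03. After subtraction of the array medians 6 were lower and 1 higher, with a median of -0.07. For 9 of the 11 the mature sequence was in the RefSeq table (GRCm38.p6). Of these, 5 are shown, 2 (miR-99a and miR-181b) for the largest differences among the genes with a sequence other than those of the let-7 seed, and 3 because they, from *Mirlet7c-1* (chr16:77599657-77599750), *Mirlet7b* (chr15:85707319-85707403) and *Mir98* (chrX:151913214-151913321), share the let-7 seed, which is in capitals.
let-7c-5p: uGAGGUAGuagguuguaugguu
let-7b-5p: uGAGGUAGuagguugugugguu
miR-98-5p: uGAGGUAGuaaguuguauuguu
miR-99a-5p: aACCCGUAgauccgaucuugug
miR-181b-5p: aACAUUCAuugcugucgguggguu

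*Mirlet7c-1* ran from 4.25 to 5.30 (median 4.79) against 5.06 to 5.72 (median 5.22) and fell by 0.53 ± 0.14 (adjusted p = 0.00977). *Mir99a*, which lies beside it on chromosome 16, ran from 5.62 to 6.34 against 5.99 to 6.88 and fell by 0.51 ± 0.13, so both neighbours overlapped between the states. *Mirlet7b* fell by 0.26 and *Mir98* by 0.35. *Mir181b-2*, expressed in vessels among other tissues, ran from 5.55 to 6.05 against 5.83 to 6.74 (-0.53 ± 0.11, adjusted p = 0.00038). The largest fall was in the muscle gene *Mir133a-2*, from 3.86 to 4.76 in sleeping to 3.62 to 4.07 in sleep-deprived mice (-0.67 ± 0.10, adjusted p = 5.13e-06). The smooth muscle gene *Mir143* fell by 0.44, and *Mir331*, *Mir485*, *Mir374b* and *Mir9-2* by 0.27, 0.24, 0.23 and 0.20. Leaving out single animals, *Mir133a-2*, *Mir181b-2* and *Mir485* kept their calls in all 18 fits, whereas *Mirlet7c-1* kept it in 6, *Mir99a* in 12, *Mir98* in 9, *Mir331* in 8 and *Mir9-2* in 5. In the 9 h arrays alone *Mir133a-2*, *Mir181b-2* and *Mir99a* passed.

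Each state was also set beside the lights-on animals. Of all probe sets, 2.65% were above and 3.96% below baseline in sleep-deprived mice, and 3.47% were above and 4.96% below it in sleeping mice. Of the 568 probe sets that rose, 212 were above baseline in sleep-deprived mice and 215 were below baseline in sleeping mice at the 1% rate, with median differences from baseline of 0.15 and -0.14. Of the 608 that fell, 194 were below baseline in sleep-deprived and 202 above it in sleeping mice (medians -0.12 and 0.14). These probe sets were selected for the difference between the states, which favours opposite departures from baseline. The baseline arrays lie in other runs of title numbers than the 9 h arrays, so a difference from baseline is in part tied to the run, and both contrasts share the baseline animals. *Cdkn1a* was at a median of 9.50 at lights-on, near its sleep-deprived level (0.22 higher, adjusted p = 0.37), and changed by -1.31 in sleeping mice. *Cirbp* was 0.94 above baseline in sleeping mice and differed from it by -0.28 (adjusted p = 0.0628) in sleep-deprived mice. *Lox* and *Lcn2* differed from baseline by -0.58 and -1.20 in sleeping mice and by 0.14 (adjusted p = 0.413) and -0.26 (adjusted p = 0.455) in sleep-deprived mice. *Map3k6*, *Fam107a*, *Timp4* and *Zbtb16* were instead above baseline in both states, by 1.56, 1.76, 1.51 and 1.90 after deprivation and by 0.71, 0.69, 0.77 and 1.37 after sleep. *Cyp2b10* and *Rbp7* were above baseline only in sleep-deprived mice at the 1% rate (1.73 and 0.85, against -0.18 and 0.07 in sleeping mice).

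Most of what was seen at 9 h had the same sign at the other hours. Of the 1176 changed probe sets 88.3%, 95.2% and 93.5% had the same sign at 3, 6 and 12 h, against 52.1%, 60.1% and 62.4% of all probe sets, and 211, 414 and 429 passed there too. At all 4 times 66 passed, and 485 passed at 9 h only, which does not show that they differ between the hours. A direct test of the difference at 9 h against the mean of 3, 6 and 12 h called 0 probe sets (0%) in limma, with 3754 at an unadjusted p under 0.05. The lowest adjusted p-values belonged to *Trim9*, a ubiquitin ligase of neurons (-0.43, adjusted p = 0.0281), and *Cnr1*, the cannabinoid receptor CB1 (-0.36, adjusted p = 0.0488), both with levels near 4.

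Against 12 h alone, 8 probe sets differed (0.0225%). The state difference of *Ddit4* was 0.97 at 9 h and -0.17 at 12 h (9 h minus 12 h, 1.14 ± 0.20, adjusted p = 0.0019), after 0.60 and 1.32 at 3 and 6 h. *Arrdc2* went from 0.82 to -0.37 (adjusted p = 0.00933) and *Chka*, the first enzyme of phosphatidylcholine synthesis, from 0.44 to -0.02 (adjusted p = 0.0019). The clone *E230001N04Rik*, which lies near *Fkbp5* on chromosome 17 and was chosen after its value was seen, went from 0.63 to -0.43. In the other direction *Bcl6b*, a repressor of endothelial cells, stood at -0.45 at 9 h and 0.33 at 12 h, *Plk2*, a kinase of stressed cells, at -0.28 and 0.23, and *Rrad*, an inhibitor of the calcium channel, at -0.37 (adjusted p = 0.0115) and 0.39. *Klf10*, a growth factor response gene, had no difference past the threshold at 9 h (-0.05, adjusted p = 0.847) and one of 0.90 at 12 h. *Fkbp5* itself, at 1.08 and 0.15, did not pass this test (adjusted p = 0.0342).

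The same test against 3 h and 6 h was added after the data were seen, and the genes named from it were chosen after their values were seen. Against 3 h 20 probe sets differed (0.0562%), 10 of them with a gene symbol, and against 6 h 2 (0.00562%). *Tbx5*, a transcription factor of the heart, stood at 0.33 at 9 h and -0.24 at 3 h (adjusted p of the difference 0.00932), *Nrep* at -0.65 and -0.05, *Trim9* at -0.31 and 0.20 and *Fam161b* at 0.47 and -0.09. *Pirt* differed from both hours, at 0.26 (adjusted p = 0.0402) against -0.39 at 3 h and -0.42 at 6 h, and *Pde7a*, a phosphodiesterase of cyclic AMP, stood at 0.08 (adjusted p = 0.429) against 0.53 at 6 h. The count against 3 h rested on single animals, with 0 calls without sleeping replicate 1, 7 or 8 or sleep-deprived replicate 9 and 46 without sleeping replicate 6, and quantile normalisation repeated on the arrays left 0. That against 6 h was 0 without sleeping replicate 1 or 2.

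**Figure D5:**
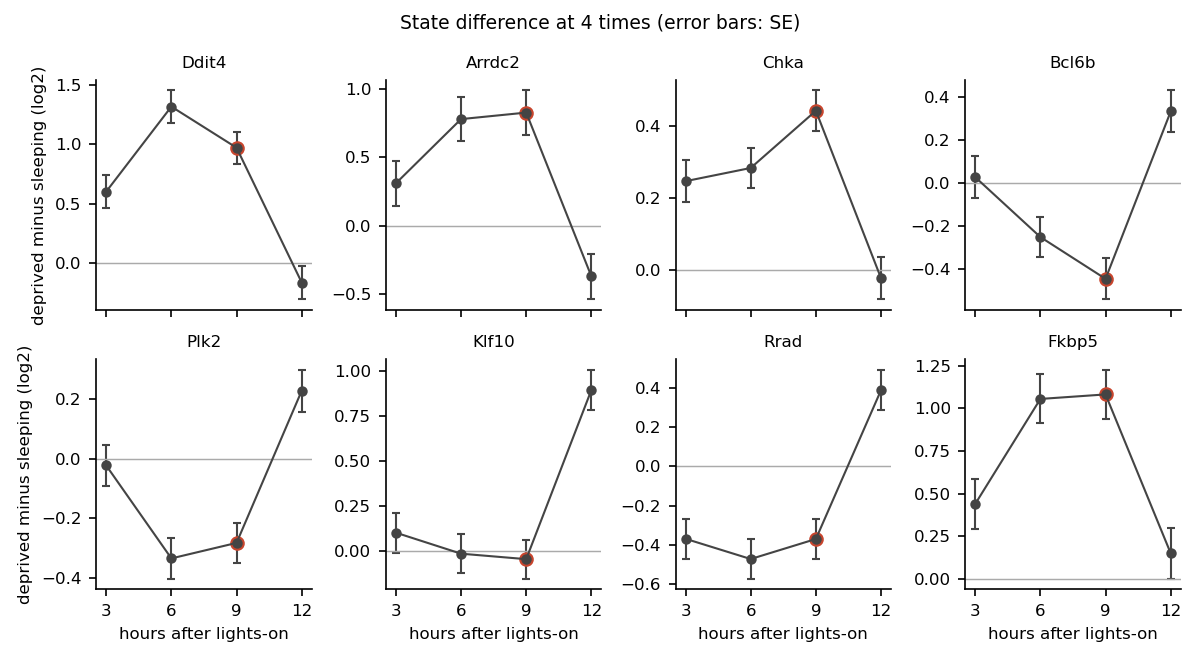
State difference (log2, sleep-deprived minus sleeping) at 3, 6, 9 and 12 h with its SE, for 7 named genes that differed between 9 h and 12 h and for *Fkbp5*, which did not pass that test. The 9 h value is marked in red, and the sign at 12 h is opposite to that at 9 h in every panel but that of *Fkbp5*. The difference of *Chka* at 12 h and that of *Klf10* at 9 h are very small, so the sign in these panels carries little weight.

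Within the runs the directions held but the calls did not. All 1176 changed probe sets kept their sign in each run, which the pooled estimate partly fixes, since each run is part of it. Alone, the first run (5 against 5) and the second (4 against 4) called 0 probe sets each in limma, with 5415 and 5111 at an unadjusted p under 0.05. With the run as a term in the fit of all arrays 651 rose and 676 fell. *Cdkn1a* was 1.43 higher in the first run and 1.64 in the second, *Fkbp5* 1.08 in both, and *Cirbp* 1.14 and 1.34 lower in the first and second.

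The spread between animals was compared as the absolute deviation from the group median. No probe set differed between sleep-deprived and sleeping mice (0 in limma, 975 at an unadjusted p under 0.05, 252 of them with more spread in sleep-deprived mice). In simulated data this comparison of 9 against 9 recovered 0% of probe sets with 8-fold spread, so the count of 0 carries no information on the spread.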

How the data were processed

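Total RNA from whole hearts was hybridised to 1-colour Affymetrix arrays, 1 per mouse, and the authors summarised and normalised all heart arrays together with R/oligo by robust multi-array averaging (RMA). The deposited values are log2 intensities. In the table used here they stood as another kind of number, whole numbers without a decimal point, and the point was put back so that each value lay in the range of RMA values. Groups were taken from the labels. Group means of all 80 arrays were fitted in limma 3.58.1 (R 4.3.3), so that the 9 groups share 1 estimate of the spread, and contrasts were tested with Benjamini-Hochberg adjustment over 35556 probe sets at 1%. P-values set a difference of group means against the spread between animals, pooled over all 9 groups. The number of arrays limits the precision, and intensities of different probe sets are not compared. Genes came from the platform annotation, 1 probe set per symbol by the highest mean, with 12457 probe sets unnamed and 1881 carrying several symbols. Members and lists were chosen with earlier results of these data known. Named genes were the 15 with the largest differences in each direction, those with the smallest p-values against the other times, up to 4 of each list, and the clock and cold-inducible lists, and further list members were named after their values were seen. *Ifi205*, *Acot1*, *Ccl6*, *Ccl9*, *Mt1* and *Mt2* have near-identical relatives and are uncertain. The fits were tested on simulated data. Alternatives were the 9 h arrays alone or with 12 h, the run, centring, quantile normalisation, a filter on dim probe sets (log2 below 4.60), 1 probe set per symbol, weights, trended robust shrinkage and leaving out each animal. Tests of 9 h against 3 h and 6 h, terms for marker lists and the removal of arrays of low correlation were added after seeing the data.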

Additional observations from a re-analysis of the deposited data

Results flagged for a closer look

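In 22 of 300 sets of 9 animals of 1 state examined at 9 h, the highest or lowest animal lay apart from the rest by more than Dixon's 95% limit, which chance gives in about 1 of 20 sets. Sleeping replicate 1, the array with the lowest mean correlation among the 18 of 9 h, held 10 of them, with *Agtr1a* at 9.317 (next animal 9.798), *Carns1* at 8.057 (next animal 8.287), *Cyp2b10* at 5.933 (next animal 5.185), *Il6ra* at 6.666 (next animal 6.404), *Mir133a-2* at 3.858 (next animal 4.415), *Mir181b-2* at 5.829 (next animal 6.31), *Mir99a* at 5.986 (next animal 6.444), *Per3* at 7.742 (next animal 8.226), *Pnpla2* at 10.98 (next animal 11.19) and *Trib1* at 6.451 (next animal 6.86). Sleep-deprived replicate 1 stood apart for *Hsp90aa1* at 9.83 (next animal 10.14). Sleep-deprived replicate 4 stood apart for *Agtr1a* at 9.105 (next animal 9.321). Sleep-deprived replicate 5 stood apart for *Gpx3* at 10.85 (next animal 11.32) and *Scn4b* at 6.549 (next animal 6.975). Sleep-deprived replicate 6 stood apart for *Akap5* at 6.863 (next animal 5.74). Sleeping replicate 3 stood apart for *Gclm* at 8.689 (next animal 8.873) and *Mir485* at 4.814 (next animal 5.101). Sleeping replicate 5 stood apart for *Mir9-2* at 3.084 (next animal 2.787). Sleeping replicate 6 stood apart for *Nqo1* at 9.132 (next animal 8.968). Sleeping replicate 7 stood apart for *Acot1* at 5.501 (next animal 5.967) and *Nr3c1* at 9.127 (next animal 8.98). Sleeping replicate 8 stood apart for *Clock* at 9.16 (next animal 9.105).

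The state difference at 9 h departed from that at another time by the direct test of the difference. The 9 h value minus the 12 h value was 1.14 for *Ddit4*, -0.7795 for *Bcl6b*, -0.5098 for *Plk2*, -0.9428 for *Klf10*, 1.055 for *E230001N04Rik*, 0.4679 for *Chka*, 1.193 for *Arrdc2* and -0.7597 for *Rrad*. The 9 h value minus the 3 h value was -0.4456 for *Ccdc150*, -0.3496 for *Mael*, 0.6466 for *Pirt*, -0.5077 for *Trim9*, 0.563 for *Fam161b*, -0.2265 for *Kcnj6*, -0.5988 for *Nrep*, 0.3954 for *Prdm11*, 0.5753 for *Tbx5* and 0.4136 for *Gramd1b*. The 9 h value minus the 6 h value was 0.6805 for *Pirt* and -0.4478 for *Pde7a*.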

How the results depend on the processing

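The 9 h comparison rested on the spread shared with the other times: the 9 h arrays alone called 238 probe sets higher and 221 lower, 428 of them also called with all arrays, and the first and the second run alone called 0 and 0 in each direction. Subtracting the array medians gave 828 higher and 386 lower, and leaving out the arrays of low correlation gave 576 and 924. Leaving out 1 animal at a time gave 451 to 589 higher and 437 to 691 lower, both lowest without sleep-deprived replicate 6. The remaining alternatives moved neither count by over 1.5 times. The comparison of 9 h with the mean of the other times gave 1 call without the arrays of low correlation, 1 with the lung term and 0 to 2 without single animals. That of 9 h with 12 h gave 13 calls without dim probe sets, 17 with 1 probe set per symbol, where fewer features are tested, and 4 to 12 without single animals, namely 4 without sleep-deprived replicate 2 or sleeping replicate 6 and 5 without sleep-deprived replicate 9 or sleeping replicate 3. Against 3 h the calls were 31 with the run as a term, 3 after centring, 0 after quantile normalisation, 7 without dim probe sets, 7 with 1 probe set per symbol, 53 with weights, 8 with trended robust shrinkage, 32 with the lung and 0 with the liver term, and 0 to 46 without single animals. Against 6 h they were 1 after quantile normalisation, 4 without the arrays of low correlation, 0 with the lung term and 0 to 2 without single animals. The spread comparison gave 0 throughout. Elsewhere the cause was not tested. No named gene that passed at 9 h changed sign, whereas medians of lists without a changed member could, such as lung epithelium (0.72, -0.10 in the first run), liver (0.21, -0.17 with the liver term) and cholesterol synthesis (0.03, -0.05 with the adipocyte term). No paired analysis was possible because replicates were numbered in the order of deposit and the labels carry no number that ties a sleep-deprived to a sleeping animal.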
